A study of Mus musculus with 8 samples.

Results

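Retinoic acid genes were examined in mouse bone marrow mesenchymal stem cells (MSCs): *Rbp4*, *Aldh1a1*, *Aldh1a2*, *Aldh1a3*, *Crabp1*, *Crabp2*, *Rarb*, *Rarg* and *Cyp26b1*. They were taken by symbol from the deposited expression table and make up 9 of its 24346 genes. All 9 passed the minimum for testing, a mean of 0.1 RPKM (reads mapped to a gene, scaled by transcript length and library size) over the libraries. RNA was sequenced from 8 libraries in 4 groups of 2, all of C57BL/6 background and at passage 4. Undifferentiated WT and undifferentiated *Dnmt3l* KO MSCs were grown in serum medium. Differentiating WT and differentiating *Dnmt3l* KO MSCs had spent 3 days in osteogenic medium with dexamethasone, β-glycerophosphate and ascorbic acid 2-phosphate. By the methods of the study, that medium held less serum than the growth medium and was given after the cells reached confluence. Effects of serum, confluence and the added compounds cannot be told apart here. *Dnmt3l* encodes a catalytically inactive partner of the DNA methyltransferases. The KO allele was present in every cell of the mice, which came from crosses of heterozygotes with WT littermates as controls, so that a change in culture and a change carried over from development cannot be told apart. The cells were of female mice and were depleted of CD11b and CD45 positive cells. The study describes mixing MSCs of several mice of a genotype for each experiment. No source used here ties the 2 libraries of a group to different mice, pools or cultures. A difference between the genotypes may therefore rest on a single pool of cells per genotype. The p-values then measure the spread between these libraries, which may be technical.

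Retinoic acid is made from vitamin A inside cells. Retinol travels in blood bound to RBP4, retinol dehydrogenases turn it into retinaldehyde, and the ALDH1A enzymes oxidise retinaldehyde irreversibly to retinoic acid. CRABP1 and CRABP2 carry the product in the cytoplasm, the receptors RARA, RARB and RARG bind it as heterodimers with RXR on DNA, and the CYP26 enzymes hydroxylate it for clearance. In bone, retinoic acid acts on osteoblast and adipocyte differentiation of mesenchymal cells, and *Cyp26b1* and *Rarb* are among the genes known to be induced by retinoic acid.

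*Rarb* and *Cyp26a1* are textbook targets of the receptors, through direct repeats of a hexamer 5 bases apart (DR5) before their starts. Their promoter windows are therefore shown, from 250 bases before to 50 bases after the start, 5′ to 3′ on the strand of the gene and with the repeated hexamers in capitals. The sequences are those of RefSeq on GRCm38.p6. The *Rarb* window spans chr14:16575427-16575726 on the minus strand and the *Cyp26a1* window spans chr19:37697558-37697857 on the plus strand. The start used for *Rarb* lies inside the span of the gene given below, not at its outer end.
Rarb: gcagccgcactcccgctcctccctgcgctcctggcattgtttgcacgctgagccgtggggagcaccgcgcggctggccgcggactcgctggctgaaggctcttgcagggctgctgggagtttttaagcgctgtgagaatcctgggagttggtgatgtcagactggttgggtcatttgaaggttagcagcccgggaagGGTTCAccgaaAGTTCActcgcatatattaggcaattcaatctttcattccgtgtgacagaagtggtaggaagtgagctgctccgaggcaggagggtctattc
Cyp26a1: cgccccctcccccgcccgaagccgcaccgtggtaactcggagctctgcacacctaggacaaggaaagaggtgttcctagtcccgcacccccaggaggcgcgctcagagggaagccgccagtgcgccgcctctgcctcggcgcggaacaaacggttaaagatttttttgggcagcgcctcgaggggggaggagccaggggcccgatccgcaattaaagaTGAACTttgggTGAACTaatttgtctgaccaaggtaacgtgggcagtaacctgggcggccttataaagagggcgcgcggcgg
The search took any pair of hexamers on both strands. They were AGGTCA, which is the consensus of nuclear receptors, then AGTTCA, which is the hexamer nearer the start of *Rarb*, then GGTTCA, which is the one farther from it, and the variant GGGTCA. In the *Rarb* window the pair lay from 53 to 37 bases before the start, and in the *Cyp26a1* window, where it reads on the opposite strand, from 32 to 16 bases before it. A DR5 was found in 32 of 32851 promoter windows (0.0974%). Windows were matched for 7 of the 9 genes (10 windows in all, since some genes have several starts), and *Rarb* was the only gene among them with a DR5. Both hexamers of the *Rarb* pair were in the list searched, so its match was fixed by that choice. The *Cyp26a1* pair repeats a hexamer of *Rarb*. The share over all windows is therefore no test of either match. Pairs 2 bases apart (DR2, 88 windows, 0.268%) and 1 base apart (DR1, 73 windows, 0.222%) were found in 0 of the 10. A match describes the letters and is not evidence of binding. The windows also differed in CpG dinucleotides, the bases that DNA methyltransferases act on: *Aldh1a2* had 50, the *Rbp4* windows 40 and 5, *Crabp1* and *Rarb* 17 each, the *Rarg* windows 12 and 10, *Cyp26b1* 9, and the *Aldh1a1* windows 3 and 1, against a median of 7 over all windows.

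The low values of genes with a single transcript gave 47.6 to 66.8 M scaled reads per library (median 49.9 M), so that the lowest values below rested on few reads (about 34 to 78 for *Rbp4* and 56 to 145 for *Crabp1*) and those of *Aldh1a1* on 827 to 41139. *Dnmt3l* was at 1.56 and 1.09 RPKM in undifferentiated and 0.845 and 0.830 RPKM in differentiating WT MSCs and was listed at 0 in all 4 KO libraries, where 3 reads would have given 0.0277 to 0.0389 RPKM. The study reports that the WT reads covered only the later exons of *Dnmt3l*, and it did not detect the canonical protein in cultured MSCs. An exact 0 in this table can be a failed estimate: *Actb*, which every cell uses, stands at 4215 and 4314 RPKM in undifferentiated WT but at 0 in the undifferentiated KO pair. None of the 9 genes was listed at 0 in any library. All 11 MSC markers stood at 1 RPKM or more in every group. Of 12 macrophage and leukocyte markers, *Ptprc* (CD45) was at 0.127 RPKM or less and *Lyz2* at 3.19 to 26.5, and 5 of the 12 stood at 1 RPKM or more in either undifferentiated group, 8 in differentiating WT and 3 in differentiating KO.

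After 3 days of osteogenic induction *Aldh1a1* stood 32.0-fold higher in WT and 43.4-fold higher in KO MSCs, and *Crabp2* 3.46-fold and 4.52-fold lower. In WT, 8 of the 9 genes had an adjusted p-value under 0.05 (limma with Benjamini-Hochberg adjustment over all 15342 genes tested), 4 higher and 4 lower, where 64.4% of all genes passed (31.6% higher, 32.8% lower). In KO, 7 passed, 3 higher and 4 lower, where 72.9% of all genes passed (36.4% higher, 36.6% lower). Past the limit that the study set for a differentially expressed gene (DEG, here an adjusted p-value under 0.05 and a log2 fold change above 1 in size) were 5 genes in WT, where 14.3% of all genes were DEGs, and 2 in KO, where 22.9% were. The number in KO was 4 without replicate 1 of undifferentiated KO (*Cyp26b1* and *Aldh1a2* in addition) and 4 without replicate 1 of differentiating KO (*Cyp26b1* and *Crabp1* in addition). All log2 fold changes are on the scale of log2(RPKM + 0.1), which understates changes of low genes. In bulk RNA, fewer cells of a type and less RNA per cell cannot be told apart.

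Between the genotypes the differences were smaller. In undifferentiated MSCs 6 of the 9 genes passed, *Cyp26b1*, *Crabp1* and *Rarg* higher and *Aldh1a3*, *Crabp2* and *Aldh1a2* lower in KO, where 32.2% of all genes passed (14.7% higher, 17.5% lower). In differentiating MSCs 4 passed, *Aldh1a3* and *Aldh1a1* higher and *Crabp2* and *Crabp1* lower, where 40.7% passed (17.8% higher, 22.9% lower). In limma 0 of the 9 were DEGs in either state, where 1.70% and 3.30% of all genes were. At an unadjusted p under 0.05 (limma), 0 were past the limit of the log2 fold change either. The study applied its limits to Cuffdiff estimates, and it discusses *Cyp26b1* with the genes upregulated in undifferentiated KO MSCs. Here the RPKM ratio of *Cyp26b1* was 2.05, and its log2 fold change of 0.91, lowered by the pseudocount, lay under the limit. The change with induction itself differed between the genotypes (the interaction) for 7 of the 9, 3 upward and 4 downward in KO relative to WT, where 39.4% of all genes passed (19.4% upward, 20.0% downward), and 3 of these were past the DEG limits, where 6.17% were. The medians of the log2 fold changes over the 9 genes were -0.00391 and 0.108 for KO against WT, undifferentiated and differentiating, -0.132 and -0.0112 for induction in WT and KO, and 0.12 for the interaction. Over all genes tested, the same medians lay between -0.007 and 0. The comparisons share libraries, each group entering 2 of the 4 comparisons between groups and all groups the interaction, so their values are given side by side and are not independent.

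**Figure D1:**
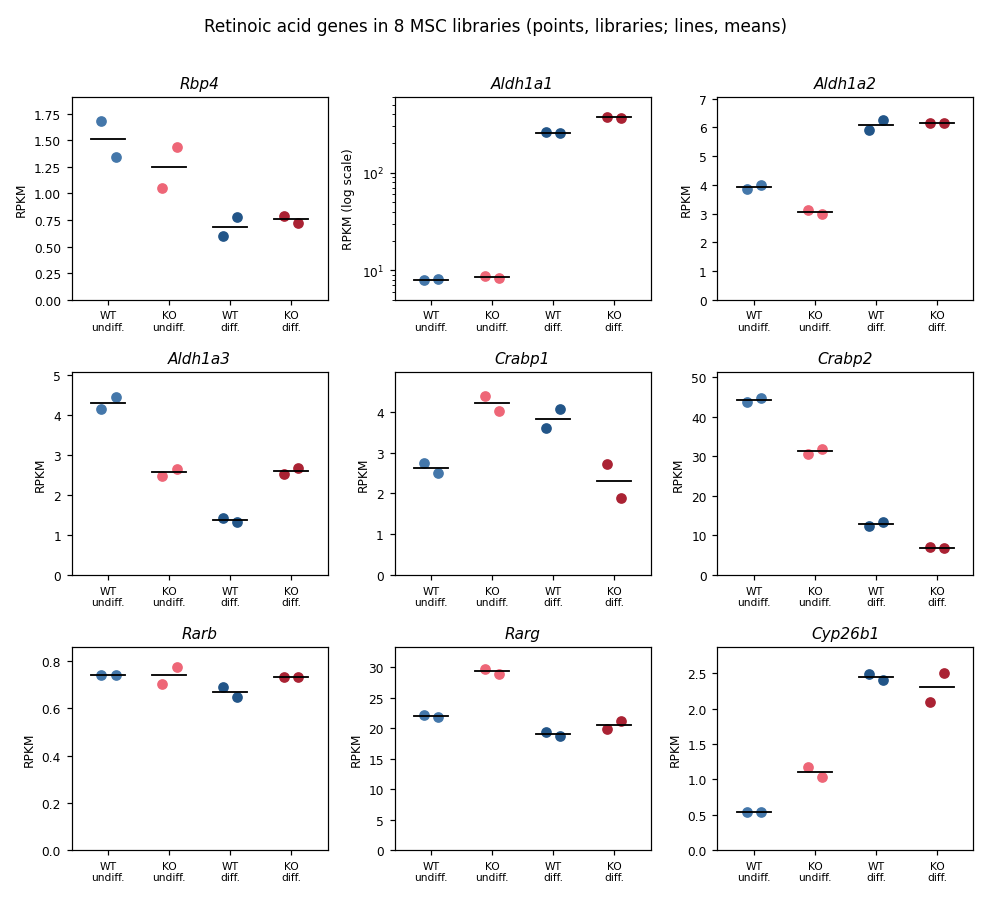
RPKM of the 9 retinoic acid genes (vertical axes, linear from 0 except for *Aldh1a1*, which is on a log scale) in the 4 groups of 2 libraries. Points are libraries and lines group means; *Aldh1a1* lies at 7.95 to 8.66 RPKM before and 253 to 377 RPKM after induction, *Rarb* stays between 0.647 and 0.775 RPKM, and *Aldh1a3* is highest in undifferentiated WT and lowest in differentiating WT.

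Supply was represented by *Rbp4*, the plasma carrier of retinol, which some mesenchymal cells and adipocytes also make. It lies on chromosome 19 of mm10, from 38116629 to 38125281, minus strand. *Rbp4* was at 1.68 and 1.34 RPKM in undifferentiated WT, 1.05 and 1.44 in undifferentiated KO, 0.595 and 0.776 in differentiating WT, and 0.792 and 0.722 in differentiating KO MSCs. The undifferentiated libraries were all above the differentiating ones, and the genotypes overlapped in both states. *Rbp4* fell with induction in WT by 54.5% (log2 fold change -1.03, standard error 0.19, adjusted p = 0.0042, limma). In KO it fell by 39.4% (-0.64, adjusted p = 0.024, limma). That call was lost without replicate 2 of undifferentiated KO (log2 fold change -0.43, adjusted p = 0.12) and without replicate 1 or 2 of differentiating KO (adjusted p = 0.062 and 0.10). With a pseudocount of 1 in place of 0.1 the changes were -0.57 and -0.35. The difference between the genotypes did not pass in either state (log2 fold changes -0.26 and 0.13, adjusted p = 0.35 and 0.61, limma), nor did the interaction (0.39, adjusted p = 0.30, limma).

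Synthesis is the step of the 3 retinaldehyde dehydrogenases, and *Aldh1a1* was by far the most abundant of them after induction. *Aldh1a1* lies on chromosome 19, from 20492715 to 20643465, plus strand. Undifferentiated WT MSCs held 7.95 and 8.10 RPKM of *Aldh1a1* and undifferentiated KO MSCs 8.66 and 8.34. Differentiating WT MSCs held 259.5 and 253 RPKM and differentiating KO MSCs 377 and 361. The 4 groups did not overlap, though the undifferentiated genotypes lay close together. The log2 fold change with induction was 4.98 in WT (standard error 0.04, adjusted p = 4.8e-08, limma) and 5.42 in KO (adjusted p = 1.1e-08, limma). By size these were places 79 and 88 from the highest among the 15342 genes tested. KO exceeded WT by 44.0% in differentiating MSCs (log2 fold change 0.53, adjusted p = 0.00069, limma), while the undifferentiated difference did not pass (0.08, adjusted p = 0.13). The interaction was 0.44 (standard error 0.05, adjusted p = 0.0019, limma).

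*Aldh1a1* overlaps the antisense transcript *C730002L08Rik*, and its neighbour *Aldh1a7*, from 20692953 to 20727562 on the minus strand of the same chromosome, is a close paralogue. The libraries kept strand, and the study describes the alignment as specific to the strand. Whether the counting used strand is not given in the sources used here. The antisense gene was at 0.0150 to 0.119 RPKM in undifferentiated and 1.17 to 2.58 RPKM in differentiating MSCs, low beside *Aldh1a1*. *Aldh1a7* also rose, from 0.767 and 0.535 RPKM to 7.49 and 7.11 in WT and from 1.02 and 0.976 RPKM to 9.55 and 9.15 in KO (log2 fold changes 3.32 and 3.11, adjusted p = 8.5e-06 and 6.2e-06, limma). How reads shared by the paralogues were divided is uncertain.

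*Aldh1a2*, the enzyme of the early embryo's retinoic acid supply, lies on chromosome 9 from 71215789 to 71296243, plus strand. It was at 3.87 and 4.00 RPKM in undifferentiated WT, 3.12 and 2.98 in undifferentiated KO, 5.92 and 6.26 in differentiating WT, and 6.14 and 6.16 in differentiating KO MSCs. Undifferentiated KO was lowest, and after induction the genotypes overlapped. *Aldh1a2* was lower in KO than in WT before induction (log2 fold change -0.36, standard error 0.05, adjusted p = 0.0041, limma) and differed by 0.01 afterwards (adjusted p = 0.85). It rose in both genotypes, by 0.62 in WT (adjusted p = 9.8e-05, limma) and by 0.99 in KO (adjusted p = 8.1e-06, limma). The RPKM ratio in KO was 2.02, and the log2 fold change, lowered by the pseudocount, lay just under the DEG limit. The interaction was 0.37 (adjusted p = 0.0084, limma).

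*Aldh1a3*, the enzyme of several epithelial and sensory tissues, lies on chromosome 7 from 66390890 to 66427517, minus strand. WT MSCs held 4.14 and 4.45 RPKM before and 1.43 and 1.31 RPKM after induction. KO MSCs held 2.48 and 2.64 RPKM before and 2.51 and 2.67 RPKM after it. The KO libraries of both states overlapped, between the WT states. *Aldh1a3* fell with induction in WT (log2 fold change -1.58, standard error 0.07, adjusted p = 1.2e-05, limma), while the value in KO was 0.02 (adjusted p = 0.85), which became -0.14 with quantile normalization and -0.06 with median centring. The KO level was 40.5% below WT before induction (log2 fold change -0.73, adjusted p = 0.0017, limma) and 88.7% above it afterwards (0.87, adjusted p = 0.00098, limma). Its interaction, 1.60 (standard error 0.10, adjusted p = 0.00056, limma), was the highest of the 9 genes.

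The sum of the 3 enzymes' levels went from 16.3 ± 0.413 to 264 ± 4.29 RPKM in WT and from 14.1 ± 0.207 to 378 ± 10.7 RPKM in KO (SD, n = 2 each). *Aldh1a1* made up 49.4% ± 0.634 of the sum in undifferentiated WT and 60.2% ± 0.72 in undifferentiated KO MSCs. After induction it made up 97.2% ± 0.103 and 97.7% ± 0.0975. Without *Aldh1a1* the sum of *Aldh1a2* and *Aldh1a3* lay at 8.23 ± 0.312 RPKM in undifferentiated WT, 5.61 ± 0.0192 in undifferentiated KO, 7.47 ± 0.15 in differentiating WT and 8.74 ± 0.121 in differentiating KO. *Aldh1a3* exceeded *Aldh1a2* in undifferentiated WT MSCs, without overlap, and *Aldh1a2* exceeded *Aldh1a3* in the other groups. These sums and shares were not tested.

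Binding in the cytoplasm belongs to the CRABPs. *Crabp2*, which is known to deliver retinoic acid to nuclear receptors, lies on chromosome 3 from 87948666 to 87953376, plus strand. It was at 43.8 and 44.7 RPKM in undifferentiated WT, 30.6 and 31.9 in undifferentiated KO, 12.3 and 13.3 in differentiating WT, and 7.10 and 6.72 in differentiating KO MSCs. No 2 groups overlapped, and KO was the lower genotype in both states. *Crabp2* fell with induction in WT (log2 fold change -1.78, standard error 0.05, adjusted p = 2.2e-06, limma) and in KO (-2.16, adjusted p = 6.1e-07, limma). KO was below WT by 29.4% in undifferentiated (log2 fold change -0.50, adjusted p = 0.0016, limma) and by 46.1% in differentiating MSCs (-0.88, adjusted p = 0.00052, limma). The interaction was -0.38 (adjusted p = 0.0084, limma).

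*Crabp1*, its paralogue, is linked to retinoic acid sequestration and clearance and lies on chromosome 9 from 54764748 to 54773110, plus strand. The libraries held 2.75 and 2.50 RPKM in undifferentiated WT, 4.40 and 4.01 in undifferentiated KO, 3.61 and 4.06 in differentiating WT, and 2.72 and 1.89 in differentiating KO MSCs. KO was above WT before induction and below it afterwards, without overlap. *Crabp1* rose with induction in WT (log2 fold change 0.53, standard error 0.17, adjusted p = 0.033, limma) and fell in KO (-0.86, adjusted p = 0.0039, limma), and the interaction was -1.39 (standard error 0.24, adjusted p = 0.0067, limma).

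The interaction of *Crabp1* and its fall in KO kept their calls under every alternative run, but its other calls were fragile. KO against WT in undifferentiated MSCs (log2 fold change 0.66, adjusted p = 0.03, limma) was lost without either undifferentiated WT library (adjusted p = 0.083 and 0.14, without replicates 1 and 2), without either undifferentiated KO library (0.14 and 0.095) and without either differentiating WT library (0.053 and 0.054). In differentiating MSCs (-0.73, adjusted p = 0.018, limma) the call was lost without either differentiating WT library (adjusted p = 0.050 and 0.099) and in a fit of the compared libraries alone (0.086). Without replicate 2 of differentiating KO the value was -0.48. The rise in WT was lost without either library of undifferentiated WT (adjusted p = 0.072 and 0.14), undifferentiated KO (0.055 and 0.056) or differentiating WT (0.068 and 0.15), with quantile normalization (log2 fold change 0.34, adjusted p = 0.13) and with median centring (0.43, adjusted p = 0.062).

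The levels of *Crabp1* and *Crabp2* together declined from 46.9 ± 0.489 to 16.6 ± 0.983 RPKM in WT and from 35.5 ± 0.628 to 9.21 ± 0.852 RPKM in KO (SD, n = 2 each). *Crabp2* made up 94.4% ± 0.441 of this sum in undifferentiated WT, 88.1% ± 0.994 in undifferentiated KO, 77.0% ± 0.551 in differentiating WT and 75.2% ± 4.08 in differentiating KO MSCs. The shares of the differentiating genotypes overlapped and those of the undifferentiated genotypes did not. *Fabp5*, a fatty acid binding protein known to carry retinoic acid to another nuclear receptor, fell with induction as *Crabp2* did: it was at 199.7 and 217 RPKM in undifferentiated WT, 164 and 156 in undifferentiated KO, 83.2 and 93.2 in differentiating WT, and 53.8 and 39.6 in differentiating KO MSCs. *Fabp5* fell in both genotypes (log2 fold changes -1.24 in WT and -1.79 in KO, adjusted p = 0.00053 and 6.5e-05, limma).

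**Figure D2:**
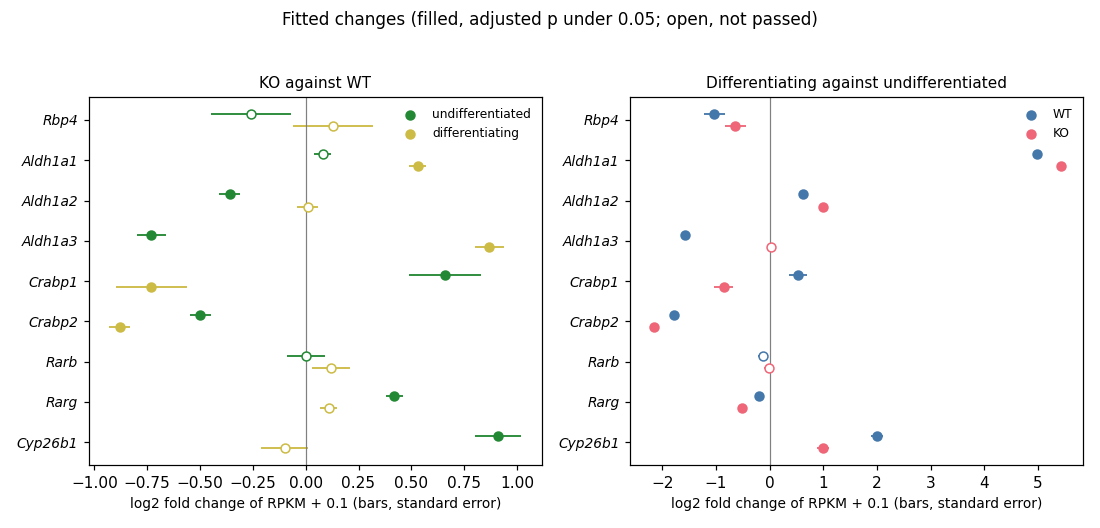
Log2 fold changes of RPKM + 0.1 (horizontal axes, bars are standard errors from the limma fit of 8 libraries) for the 9 genes, KO against WT at left and differentiating against undifferentiated at right. Filled points had an adjusted p-value under 0.05. Of the genes with both points filled at left, *Aldh1a3* and *Crabp1* lie on opposite sides of 0 in the undifferentiated and differentiating states. At right *Aldh1a1* lies farthest from 0.

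Among the receptors, *Rarg*, the main retinoic acid receptor of cartilage and limb mesenchyme, was the most abundant RAR by RPKM. *Rxra*, an RXR partner, was lower than *Rarg* before induction (13.7 to 14.8 RPKM) and higher after it (24.8 and 24.5 in WT, 30.4 and 31.7 in KO). *Rarg* lies on chromosome 15 from 102234938 to 102257517, minus strand. *Rarg* was at 22.1 and 21.8 RPKM in undifferentiated WT, 29.7 and 28.9 in undifferentiated KO, 19.3 and 18.7 in differentiating WT, and 19.9 and 21.2 in differentiating KO MSCs. Undifferentiated KO stood above the other 6 libraries. KO exceeded WT by 33.6% before induction (log2 fold change 0.42, standard error 0.04, adjusted p = 0.0016, limma). After induction the difference of 0.11 did not pass (adjusted p = 0.082, limma), although it did without replicate 1 of differentiating KO (0.15, adjusted p = 0.026). *Rarg* fell with induction in WT (-0.20, adjusted p = 0.0053, limma) and in KO (-0.51, adjusted p = 6.2e-05, limma), with an interaction of -0.31 (adjusted p = 0.0089, limma).

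*Rarb*, with the DR5 shown above, lies on chromosome 14 from 16430839 to 16819156, minus strand, where it overlaps *Top2b* on the other strand. It was at 0.740 and 0.743 RPKM in undifferentiated WT, 0.705 and 0.775 in undifferentiated KO, 0.691 and 0.647 in differentiating WT, and 0.735 and 0.731 in differentiating KO MSCs. The whole range over the 8 libraries was 0.647 to 0.775 RPKM, on about 96 to 134 reads, and it was the only 1 of the 9 genes that did not pass in any of the 5 comparisons. The log2 fold changes were -0.0039 and 0.12 for KO against WT (adjusted p = 0.99 and 0.34, limma), -0.13 and -0.01 with induction in WT and KO (adjusted p = 0.23 and 0.92), and 0.12 for the interaction (adjusted p = 0.48). With a standard error of 0.09 in the 4 comparisons between groups, small changes were not detectable, and with quantile normalization *Rarb* was lower after induction in both genotypes (-0.39 and -0.33, adjusted p = 0.0093 and 0.015). *Top2b* stood far above it, at 49.0 to 63.2 RPKM.

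*Rara*, the widely expressed receptor, was at 6.43 and 6.03 RPKM in undifferentiated WT, 8.22 and 7.76 in undifferentiated KO, 7.93 and 7.95 in differentiating WT, and 7.99 and 8.96 in differentiating KO MSCs. Undifferentiated WT lay below the other groups, with a rise on induction in WT (log2 fold change 0.35, adjusted p = 0.0047, limma) and a value of 0.08 in KO (adjusted p = 0.30). The difference of *Rara* between undifferentiated genotypes (0.35, adjusted p = 0.012, limma) was lost without replicate 2 of undifferentiated WT or replicate 1 of undifferentiated KO (adjusted p = 0.072 for each). The sum of the 3 RAR genes was 28.9 ± 0.44 RPKM in undifferentiated WT, 38.0 ± 0.858 in undifferentiated KO, 27.6 ± 0.464 in differentiating WT and 29.7 ± 1.62 in differentiating KO, and *Rarg* made up 75.9%, 77.1%, 68.8% and 69.0% of it. The partner *Rxra* rose in both genotypes, from 14.8 and 14.7 to 24.8 and 24.5 RPKM in WT and from 14.3 and 13.7 to 30.4 and 31.7 RPKM in KO (log2 fold changes 0.73 and 1.15, adjusted p = 1.6e-05 and 1.8e-06, limma; interaction 0.41, adjusted p = 0.0026).

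Degradation is the task of the CYP26 enzymes. *Cyp26b1*, the form of limb, cartilage and brain, lies on chromosome 6 from 84571414 to 84593908, minus strand. It was at 0.538 and 0.537 RPKM in undifferentiated WT, 1.17 and 1.03 in undifferentiated KO, 2.49 and 2.41 in differentiating WT, and 2.09 and 2.51 in differentiating KO MSCs. Undifferentiated KO stood between undifferentiated WT and the differentiating libraries, and the differentiating genotypes overlapped. *Cyp26b1* was 2.05-fold higher in KO than in WT before induction (log2 fold change 0.91, standard error 0.11, adjusted p = 0.0027, limma), a difference that was not past the DEG limit except with a pseudocount of 0.01 (1.02) and was 0.45 with a pseudocount of 1. It rose 4.56-fold in WT (2.00, adjusted p = 2.2e-05, limma) and 2.08-fold in KO (0.99, adjusted p = 0.00025, limma), which gave an interaction of -1.01 (standard error 0.15, adjusted p = 0.0045, limma). After induction the genotypes differed by -0.10 (adjusted p = 0.51). With a pseudocount of 1 the 3 values that passed after induction were 1.17, 0.65 and -0.52.

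*Cyp26a1*, the other DR5 gene shown above and the embryonic form, was too low to test. Its values were 0 in both undifferentiated WT and both differentiating KO libraries, 0 and 0.0128 RPKM in undifferentiated KO, and 0.00944 and 0.0123 RPKM in differentiating WT, about 1 read at most. All of these lie under the 0.0282 to 0.0396 RPKM that 3 reads would give, a floor for counting error only, so no difference was detectable at this depth.

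The order of the 9 genes by RPKM, which is a level per length, changed with induction. In undifferentiated WT it ran *Crabp2*, *Rarg*, *Aldh1a1*, *Aldh1a3*, *Aldh1a2*, *Crabp1*, *Rbp4*, *Rarb* and *Cyp26b1*, with no neighbours overlapping. In undifferentiated KO it ran *Crabp2*, *Rarg*, *Aldh1a1*, *Crabp1*, *Aldh1a2*, *Aldh1a3*, *Rbp4*, *Cyp26b1* and *Rarb*, and *Rbp4* and *Cyp26b1* overlapped. In differentiating WT *Aldh1a1* led, before *Rarg*, *Crabp2*, *Aldh1a2*, *Crabp1*, *Cyp26b1*, *Aldh1a3*, *Rbp4* and *Rarb*, the last 2 overlapping. In differentiating KO the order was *Aldh1a1*, *Rarg*, *Crabp2*, *Aldh1a2*, *Aldh1a3*, *Crabp1*, *Cyp26b1*, *Rbp4* and *Rarb*, and *Aldh1a3* overlapped *Crabp1*, *Crabp1* overlapped *Cyp26b1*, and *Rbp4* overlapped *Rarb*. The highest of the 9 genes was 82.3-fold above the lowest in undifferentiated WT and 504-fold above it in differentiating KO.

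Of 52 other genes of the pathway, 38 were high enough to test, and 2 were listed at 0 in all libraries. With induction 27 passed in each genotype, 22 higher and 5 lower in WT and 20 higher and 7 lower in KO, with medians of 0.36 and 0.439 against 0 and -7.91e-05 over all genes. Of all genes, 64.4% passed in WT (31.6% higher, 32.8% lower) and 72.9% in KO (36.4% higher, 36.6% lower). DEGs numbered 9 in WT (7 higher, 2 lower), where 14.3% of all genes were DEGs, and 14 in KO (10 higher, 4 lower), where 22.9% were. Between the genotypes 16 passed in undifferentiated MSCs (9 higher and 7 lower in KO; 4 to 10 without single undifferentiated or differentiating WT libraries or undifferentiated KO libraries) and 14 in differentiating MSCs (10 higher, 4 lower), against 8 without replicate 2 of differentiating WT and 9 without replicate 2 of differentiating KO. Of all genes, 32.2% passed in undifferentiated and 40.7% in differentiating MSCs. The DEGs were *Adh1* and *Zfp703* in undifferentiated and *Adh1* and *Rarres2* in differentiating MSCs, where 1.70% and 3.30% of all genes were DEGs. In undifferentiated MSCs they numbered 1 without replicate 2 of WT and 0 without replicate 2 of KO, and in differentiating MSCs 0 without replicate 2 of either genotype. The interaction passed for 19 (12 upward, 7 downward; 12 in all without either undifferentiated KO library or replicate 2 of differentiating WT), where 39.4% of all genes passed.

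**Figure D3:**
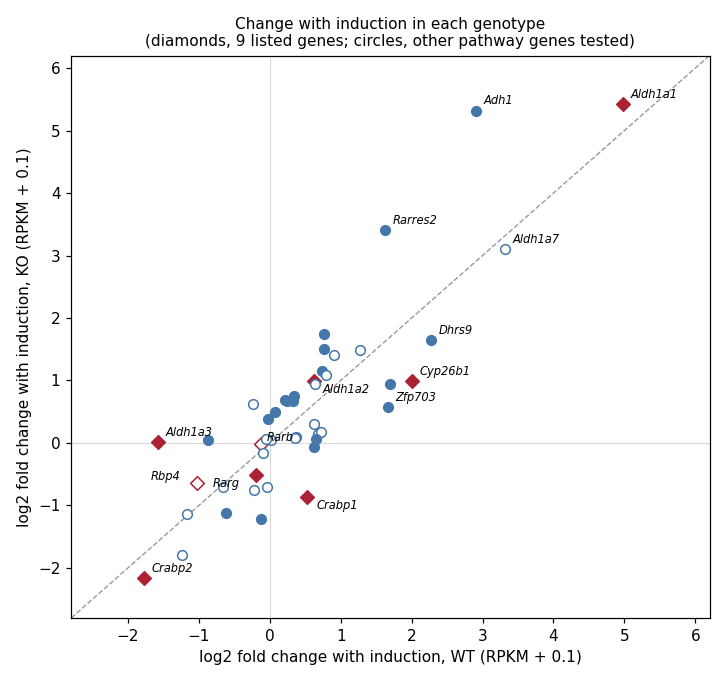
Log2 fold change with induction in WT (horizontal) and in KO MSCs (vertical), on the scale of log2(RPKM + 0.1), for the 9 genes (red diamonds) and the other pathway genes tested (blue circles). Filled symbols had an interaction with an adjusted p-value under 0.05 and the dashed line marks equal change; *Crabp1* lies at 0.53 and -0.86 and *Adh1* at 2.91 and 5.32.

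Upstream of the ALDH1A enzymes, *Adh1*, an alcohol dehydrogenase that also oxidises retinol, was at 0.720 and 0.551 RPKM in undifferentiated WT, 0.275 and 0.143 in undifferentiated KO, 5.77 and 5.03 in differentiating WT, and 11.4 and 12.5 in differentiating KO MSCs. Like *Aldh1a3*, *Adh1* was lower in KO before and higher in KO after induction (log2 fold changes -1.28 and 1.13, adjusted p = 0.0091 and 0.011, limma). The call in differentiating MSCs was lost without replicate 2 of differentiating WT (adjusted p = 0.068) or of differentiating KO (0.056), and that in undifferentiated MSCs without replicate 1 of undifferentiated WT (0.050) or with the compared libraries alone (0.050). *Adh1* rose by 2.91 in WT and 5.32 in KO (adjusted p = 9e-05 and 4.6e-06, limma), and the interaction was 2.41 (adjusted p = 0.0029, limma). With a pseudocount of 1 the undifferentiated difference was -0.44, the rise in KO 3.42 and the interaction 1.45.

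Other genes of the retinol to retinaldehyde step moved in both directions. *Rdh10*, the main retinol dehydrogenase of the embryo, fell from 10.4 and 10.2 to 4.49 and 4.55 RPKM in WT and from 9.76 and 9.40 to 4.34 and 4.25 RPKM in KO (log2 fold changes -1.17 and -1.14, adjusted p = 3.7e-06 and 2.2e-06, limma). *Dhrs3*, which reduces retinaldehyde back to retinol, fell from 85.9 and 89.8 to 56.1 and 55.3 RPKM in WT and from 84.1 and 89.5 to 55.7 and 51.5 RPKM in KO (-0.66 and -0.70, adjusted p = 0.0001 and 4.6e-05, limma). The difference between the genotypes did not pass for either gene in either state, although that of *Rdh10* in undifferentiated MSCs (-0.10, adjusted p = 0.086, limma) passed with median centring (-0.13, adjusted p = 0.041). *Rdh11*, another retinaldehyde reductase, fell in both genotypes (-0.62 in WT and -1.12 in KO, adjusted p = 0.002 and 9.9e-05, limma), and *Dhrs9*, a retinol dehydrogenase, rose by 2.27 in WT and 1.65 in KO (adjusted p = 6.9e-06 and 1.3e-05, limma).

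Among genes of uptake and storage, *Stra6*, the cell surface receptor for RBP4, was too low to test, at 0 to 0.0532 RPKM in undifferentiated and 0.0833 to 0.186 RPKM in differentiating MSCs. The carotenoid cleaving enzymes *Bco1* and *Bco2* stayed under 1 RPKM in all libraries and rose in both genotypes (0.91 and 1.41 for *Bco1*, adjusted p = 0.011 and 0.0013; 0.76 and 1.75 for *Bco2*, adjusted p = 0.016 and 0.00032, limma). The *Bco1* call in WT was lost without replicate 2 of differentiating WT (adjusted p = 0.051), and the *Bco2* call in WT without replicate 2 of undifferentiated WT (0.077) or of differentiating WT (0.076) and with quantile normalization (log2 fold change 0.42, adjusted p = 0.098). With a pseudocount of 1 the rises were 0.24 and 0.33 for *Bco1* and 0.26 and 0.55 for *Bco2*.

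Of 9 tested genes listed as targets of retinoic acid, 6 rose in WT, where 31.6% of all genes rose, and 6 rose and 1 fell in KO, where 36.4% rose and 36.6% fell. *Rarres2*, which encodes chemerin, rose from 2.54 and 2.86 to 9.27 and 7.82 RPKM in WT and from 1.89 and 1.24 to 14.8 and 20.3 RPKM in KO (log2 fold changes 1.62 and 3.41, adjusted p = 0.0013 and 3.1e-05, limma; interaction 1.79, adjusted p = 0.0082). *Rarres1* rose by 1.70 and 0.94 (adjusted p = 1.8e-05 and 0.00012, limma) and *Nr2f1*, an orphan nuclear receptor gene, by 0.79 and 1.09 (adjusted p = 0.00095 and 0.00015, limma). *Zfp703*, a transcriptional repressor gene, ordered its groups as *Cyp26b1* did before induction: it was at 1.28 and 1.15 RPKM in undifferentiated WT, 2.49 and 2.68 in undifferentiated KO, 4.28 and 3.83 in differentiating WT, and 3.41 and 4.42 in differentiating KO MSCs, with a genotype difference of 1.03 before induction (adjusted p = 0.0035, limma) and an interaction of -1.09 (adjusted p = 0.0067, limma). The coregulator gene *Nrip1* rose 1.71-fold in WT and 2.87-fold in KO (adjusted p = 0.0014 and 4.4e-05, limma).

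Marker lists of cell types were followed over the same comparisons. All 7 tested adipocyte markers rose with induction in both genotypes, and the summed level of the 8 listed went from 56.3 to 59.5 RPKM in undifferentiated WT to 409.9 to 413 in differentiating WT, and from 64.1 to 66.8 to 413 to 445 RPKM in KO. Most of it was *Fabp4*, at 324 to 357 RPKM after induction; the defining *Adipoq* stood at 7.65 to 11.9 RPKM, and *Lep* and *Retn* were listed at 0 before induction. The macrophage and leukocyte list of 12 genes was lower in KO, at 22.7 to 23.9 RPKM in undifferentiated WT against 10.3 to 11.2 in undifferentiated KO, and at 39.2 to 45.7 in differentiating WT against 14.7 to 16.2 in differentiating KO, with 7 of 11 tested genes lower and 2 higher before induction and 10 lower and 1 higher after it. The 10 osteoblast markers summed to 1226 to 1358 RPKM in undifferentiated WT, 1513 to 1587 in undifferentiated KO, 2099 to 2322 in differentiating WT and 1170.4 to 1239.6 in differentiating KO. The higher sum in undifferentiated KO was that of *Col1a1*, at 735 and 597 RPKM in undifferentiated WT and 985 and 1048 in undifferentiated KO, while *Alpl* was at 44.6 and 44.2 against 21.8 and 23.5 RPKM and *Ibsp* at 49.5 and 51.3 against 20.2 and 19.7. In KO against WT, 1 osteoblast marker was higher and 3 were lower before induction, and 0 were higher and 7 lower after it (limma). Of all genes tested, 14.7% were higher and 17.5% lower in KO before induction, and 17.8% higher and 22.9% lower after it. The 6 endothelial markers summed to 0.542 to 4.67 RPKM over all libraries. The 11 MSC markers summed to 1582 to 1611, 1733 to 1740.3, 3032 to 3107 and 3857 to 3911 RPKM in the same order, with 7 rising and 4 falling in WT and 5 rising and 5 falling in KO. Most of the rise in the sum was that of *Ly6a*, from 471 and 478 to 1868 and 1825 RPKM in WT. In KO *Ly6a* went from 639 and 653 to 2603 and 2523 RPKM, while *Cd44* and *Itgb1* fell in both genotypes. With induction, 31.6% of all genes rose and 32.8% fell in WT, and 36.4% rose and 36.6% fell in KO. The part of these cell types in the values of the 9 genes was not tested.

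**Figure D4:**
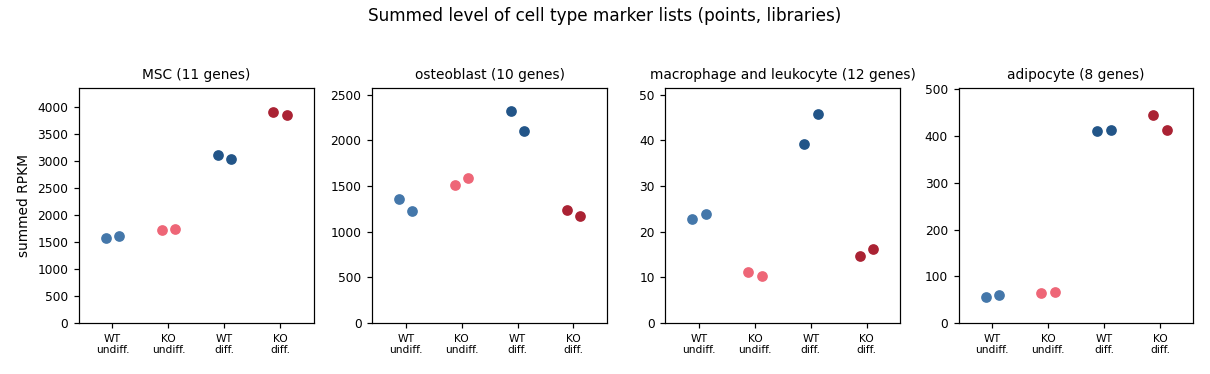
Summed RPKM of the marker lists (vertical axes, linear from 0) in each of the 8 libraries (points), in 4 groups of 2. The adipocyte list lies at 56.3 to 66.8 RPKM in the undifferentiated and 409.9 to 445 RPKM in the differentiating libraries, and the macrophage and leukocyte list is lower in KO than in WT in both states.

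Some genes had nearly the same pattern over the 8 libraries as those of the 9 that were DEGs in a comparison, out of the 12269 whose mean reached 1 RPKM. By Pearson's r of log2(RPKM + 0.1), *Aldh1a1* was most like *Aff3* (0.9997), *Ramp2* (0.9996) and *Cst3* (0.9996), and *Crabp2* most like *Kalrn*, *Hs6st2* and *Hoxb2* (0.9987 each). *Cyp26b1* was most like *Pigt* (0.9958), *Pcnt* (0.9956) and *Iffo1* (0.9954), and *Aldh1a3* most like *Tmed4* (0.9879), *Bmi1* (0.9871) and *Adh7* (0.9857), the last a further alcohol dehydrogenase known to oxidise retinol. *Rbp4* was most like *Bcdin3d* (0.9929), *Nprl3* (0.9751) and *Rab4b* (0.9732), and *Crabp1* most like *Ergic1* (0.9732), *Diap3* (0.9707) and *Elovl6* (0.9655). These r values describe 8 libraries in 4 groups, share library and depth, and mostly reflect the group means.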

How the data were processed

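RNA of 8 libraries was measured by stranded total RNA sequencing after removal of ribosomal RNA. The authors aligned the reads to mm10 with TopHat2 (version 2.1.0 per the submitters' processing notes, which also name Cufflinks 2.2.1) against iGenomes gene models, and Cuffdiff gave the values per gene. The deposited values are RPKM per gene and library, without pooling. All 8 columns matched a sample by name, leaving 0 without one.

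From there, log2(RPKM + 0.1) was fitted in limma (3.58.1, R 4.3.3) by group means, all 8 libraries and a variance trend (4 residual and 1.98 prior degrees of freedom). The 15342 of 24346 genes whose mean reached 0.1 RPKM were tested, with Benjamini-Hochberg adjustment over all of them. A DEG had an adjusted p-value under 0.05 and a log2 fold change above 1 in size, limits of the study. The fit was tested on simulated data. Tables and plots were made with matplotlib 3.10.9, pandas 2.3.3 and numpy 2.4.6 (Python 3.11.15). RPKM gives no depth directly. Depth was estimated from the steps between low values of 2140 genes with a single transcript, 200 nt being subtracted from the length. Both the depths and this length were those that gave the largest share of whole values. Of 2856 low values, 82.0% were whole within 0.1 read against 20% by chance, a level that does not allow for that choice. Reads were therefore not recovered for a count test.

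The 9 genes, the pathway and marker lists and the tests were chosen with earlier results of these data known. All 9 genes are named. Other pathway genes are named where they were a DEG in a comparison, together with *Rara*, *Rxra*, *Cyp26a1*, *Rdh10*, *Dhrs3* and *Stra6*. Some genes that this rule names are counted but not reported here. *C730002L08Rik*, *Top2b* and *Actb* were named after their values were seen. For the genes that were DEGs, the 3 most correlated genes are given. Gene positions are those of GENCODE M21 (mm10). Promoter windows and their sequences are those of RefSeq (GRCm38.p6). A planned comparison of protein sequences was not run, since no protein table was used here. Alternatives were pseudocounts of 0.01 and 1, a minimum mean of 0.5 RPKM or none, quantile normalization, median centring, no variance trend, the replicate number as a block, the compared libraries alone, and each library left out in turn.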

Additional observations from a re-analysis of the deposited data

Results flagged for a closer look

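Every entry here is a gene whose change with induction differed between *Dnmt3l* KO and WT MSCs, by the test of the interaction itself (adjusted p-value under 0.05, limma with Benjamini-Hochberg adjustment over all genes, 2 libraries a group), where 39.4% of all genes tested did. Values are log2 differences, KO change minus WT change. Among the 9 retinoic acid genes these were *Aldh1a3* (1.60), *Aldh1a1* (0.44) and *Aldh1a2* (0.37) upward, and *Crabp1* (-1.39), *Cyp26b1* (-1.01), *Crabp2* (-0.38) and *Rarg* (-0.31) downward. Among the other named pathway genes they were *Adh1* (2.41), *Rarres2* (1.79), *Bco2* (0.99), *Nrip1* (0.73) and *Rxra* (0.41) upward, and *Zfp703* (-1.09), *Rarres1* (-0.76), *Dhrs9* (-0.62) and *Rdh11* (-0.49) downward.

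The 7 values of the retinoic acid genes kept their direction and their call under each of the alternatives in which the interaction was fitted. The calls of *Bco2* and *Rdh11* did not: with the replicate number as a block their adjusted p-values were 0.06 and 0.052. The *Bco2* call was lost with a pseudocount of 1 (0.29, adjusted p = 0.052) and the *Rdh11* call with no variance trend (adjusted p = 0.051). They were also lost without single libraries. For *Bco2* these were replicate 1 of undifferentiated WT (0.091) and of differentiating WT (0.10), replicate 2 of differentiating WT (0.075) and of differentiating KO (0.085), and replicates 1 and 2 of undifferentiated KO (0.10 and 0.054). For *Rdh11* they were both libraries of undifferentiated WT (0.10 and 0.052), undifferentiated KO (0.11 and 0.075) and differentiating WT (0.099 and 0.083). The *Nrip1* call was lost without replicate 1 of undifferentiated WT or of undifferentiated KO (0.051 and 0.050).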

How the results depend on the processing

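Over 17 alternatives, 1960 of 2090 values of single genes kept their direction and their side of the threshold, and 308 of 336 counts stayed within 1.5 times the main count. The cause of the changes below was not tested. The labels give replicate numbers, but same-numbered libraries did not deviate together over all genes (correlations of deviations from the group means -0.0924 to 0.0304). This cannot settle whether same-numbered libraries shared a culture or a preparation. With the replicate block, the counts of the 9 genes that passed were 6, 4, 8, 7 and 7 (KO against WT undifferentiated and differentiating, induction in WT and KO, interaction), as without it, and those of the other pathway genes 11, 13, 26, 26 and 13 in place of 16, 14, 27, 27 and 19.

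Of the 9 genes, 1 in place of 0 was a DEG between undifferentiated genotypes with a pseudocount of 0.01 (0 to 0 with a library left out), and 4 in place of 2 were DEGs on induction in KO (2 to 4 with a library left out, the higher number without replicate 1 of undifferentiated or of differentiating KO). For the other pathway genes, the compared libraries alone gave 10 that passed in undifferentiated and 9 in differentiating MSCs, where leaving out a library gave 4 to 19 and 8 to 18, and for the interaction 12 to 22. Their DEGs between undifferentiated genotypes numbered 0 with a pseudocount of 1, 1 with quantile normalization, 1 with the compared libraries alone and 0 to 3 with a library left out, in place of 2. In differentiating MSCs they numbered 1 with a pseudocount of 1, 1 with the compared libraries alone and 0 to 3 with a library left out, in place of 2. With a pseudocount of 1 they numbered 9 in place of 14 on induction in KO (14 to 14 with a library left out) and 2 in place of 4 for the interaction (3 to 4).

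The log2 fold changes that reversed had not passed as reported. With quantile normalization these were *Rarb* in KO against WT undifferentiated (0.012), *Aldh1a3* on induction in KO (-0.14, and -0.064 with median centring), *Bco1* in differentiating (-0.045) and *Dhrs3* in undifferentiated MSCs (0.0041), and with a pseudocount of 1 the interaction of *Aldh1a7* (0.041). With a library left out the ranges crossed 0 in KO against WT differentiating for *Cyp26b1* (-0.22 to 0.032), *Rbp4* (-0.032 to 0.30), *Aldh1a2* (-0.025 to 0.053), *Bco1* (-0.026 to 0.062), *Rarres1* (-0.22 to 0.050) and *Zfp703* (-0.24 to 0.12), in KO against WT undifferentiated for *Rarb* (-0.064 to 0.057) and *Dhrs3* (-0.063 to 0.027), on induction in KO for *Rarb* (-0.072 to 0.049) and *Aldh1a3* (-0.027 to 0.062), and in the interaction for *Dhrs3* (-0.095 to 0.018) and *Aldh1a7* (-0.43 to 0.014). Where a group keeps a single library, that library is assumed to vary like the others. Median centring moved the median of all genes by over 0.1 only for induction in WT, to -0.101. The interaction could not be fitted on the compared libraries alone.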
